A study of Mustela putorius furo and Mus musculus with 4 samples.

Results

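Cycling cortical progenitors were examined in single-cell RNA sequencing of the cerebral cortex of 1 wild-type ferret embryo at embryonic day 39 (E39). They were chosen by their own counts, as cells with a UMI (a counted RNA molecule) of at least 3 of 7 genes that are transcribed in G2 and mitosis, namely MKI67, TOP2A, CDK1, BIRC5, UBE2C, CENPF and NUSAP1. Among 23241 ferret cells with at least 750 detected genes, 1386 met the rule, or 5.96% (exact 95% interval 5.66% to 6.28%). The series holds 41602 deposited cells, of which 18120 come from mouse cortex and are not described here. The study asked what lengthens the period of neuron production in the mammalian cortex, and the ferret is a carnivore with a folded cortex. No treatment or transgene is given for the ferret. Its cells came in a single table in which the barcodes carry 1 of 2 suffixes. Cells with the same suffix are called a barcode set here. The labels do not tie a suffix to either of the 2 ferret samples. Both sets come from the same embryo, so they are not biological replicates, no test between groups of cells was made, and every interval covers counting error only.

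Radial glia are the neural stem cells of the embryonic cortex. They divide at the ventricle, or as outer radial glia in the outer subventricular zone, a layer that is thick in gyrencephalic species, and they renew themselves or give rise to intermediate progenitors. Intermediate progenitors express the T-box factor EOMES (TBR2) and divide to make glutamatergic neurons. Both kinds pass through the same cell cycle, in which DNA is copied in S phase and the mitotic machinery is made and used in G2 and M.

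Set 1 gave 619 cycling cells of 10187 (6.08%, 5.62% to 6.56%) and set 2 gave 767 of 13054 (5.88%, 5.48% to 6.29%). The sets differed in depth, with medians of 2556 and 3563 UMIs per cell. Cycling cells were deeper than the other cells in both, with medians of 3521 against 2499 UMIs in set 1 and 5198 against 3447 in set 2. The median share of mitochondrial UMIs was 1.11% in cycling cells and 1.26% in the others. The sets shared 38 barcode sequences, of which 3 belonged to a cycling cell in either set and 0 to cycling cells in both. A cell of high UMI count can be a doublet, and 8.95% of cycling cells fell in the top 5% of doublet scores of their set, against 5.23% of the other cells. When cells were thinned to 2000 UMIs, which 18907 cells reached (1347 of them cycling), and the rule was applied again, 5.29% of cells were cycling (range of 20 draws 5.19% to 5.37%), with 6.01% in set 1 and 4.80% in set 2.

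The cells carried the genes of the label. BIRC5, a chromosomal passenger protein also known as survivin, was detected in 88.1% of cycling cells and 4.24% of the others, and UBE2C, which works with the anaphase-promoting complex, in 84.8% and 2.83%. TOP2A, the DNA topoisomerase that untangles sister chromatids, was detected in 77.3% and 3.68%, and MKI67, the antigen Ki-67, in 50.4% and 0.663%. These values describe the choice of cells, since the rule used them. By number of rule genes, 18250 cells had 0 of the 7 genes, 3039 had 1, 566 had 2, 281 had 3, 218 had 4, 214 had 5, 299 had 6 and 374 had all 7. Cells with 2 genes, just outside the rule, had a median of 3588 UMIs and cells with 3, just inside, a median of 3652. Cyclin B1 (CCNB1), the partner of CDK1 at mitotic entry, stood at 24.4 CPM (UMIs of the gene scaled to a total of 1000000 UMIs) just outside and 92.2 CPM just inside, and PCNA, the sliding clamp of the replication fork, at 209 and 346 CPM.

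The number of rule genes in a cell moved in different ways with the 2 phase lists, which do not contain the 7 genes. The summed level of 49 genes of G2 and mitosis was 4709 CPM in cells with 3 rule genes and 19223 CPM in cells with 7, and it was higher with each added gene in both sets. The summed level of 44 genes of G1/S and S phase was 2831 CPM in cells with 3 rule genes, 3798 CPM with 5 and 2226 CPM with 7. Its highest value was at 4 rule genes in set 1 (2569 CPM) and at 5 in set 2 (4811 CPM), and cells with 7 had less in both (1750 and 2360 CPM). Depth moved along with the count, to a median of 5886.5 UMIs in cells with 7 rule genes.

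**Figure D1:**
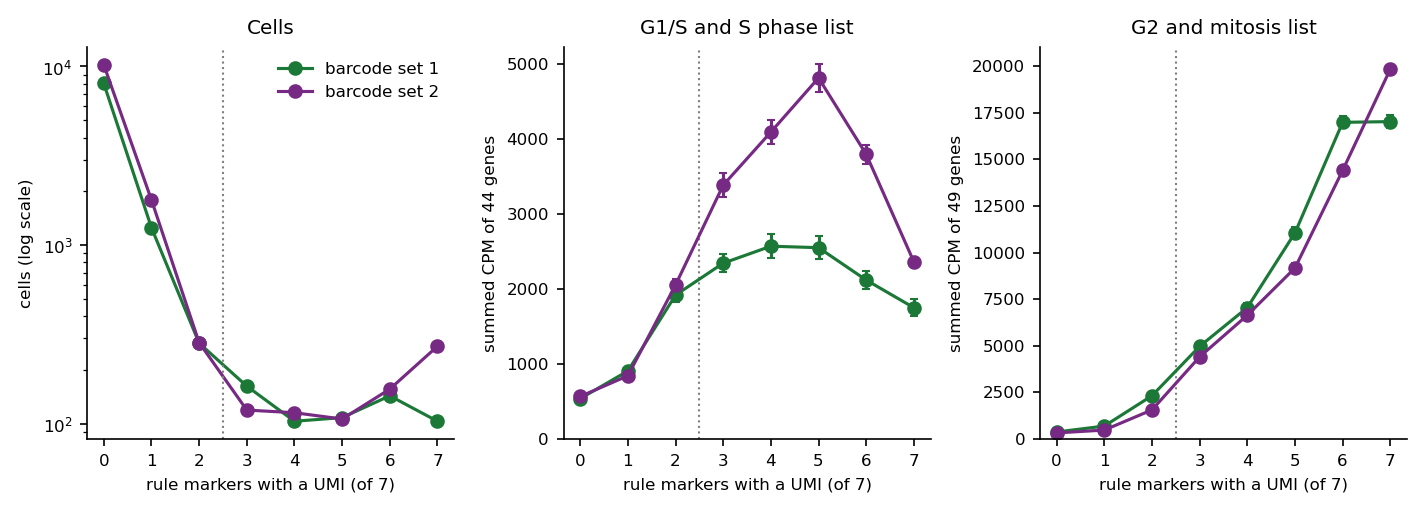
Ferret cells by the number of the 7 rule genes with a UMI, in set 1 and set 2: cells (left, log scale), summed CPM of 44 G1/S and S-phase genes (middle) and of 49 G2 and mitosis genes (right), with exact Poisson 95% intervals as bars and a dotted line at the cutoff. The G2 and mitosis sum reaches 17028 and 19842 CPM in cells with 7 rule genes, where the S-phase sum is below its highest value in both sets.

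Against all other cells, 72.3% of which had at least 4 pyramidal neuron genes, the cycling cells held far more mitotic RNA. A gene was counted as past the fold when its CPM differed at least 2-fold in the same direction in both sets, with at least 50 UMIs in all. Of 15560 genes with enough UMIs, 1743 were higher in cycling cells (11.2%) and 1534 lower (9.86%). All 49 genes of the G2 and mitosis list were among the higher ones, with a median log2 ratio of 5.93, while the median over all genes tested was -0.01. This contrast is close to the rule, so the counts describe the cells chosen. CCNB1 stood at 406 CPM in set 1 and 393 CPM in set 2, against 4.68 and 2.48 CPM in the other cells, a ratio of 122 (95% interval 107.5 to 139). PTTG1, the securin that holds separase inactive until anaphase, stood at 837 and 644 CPM against 21.0 and 8.16 CPM. HMGB2, a chromatin protein of dividing cells, was 35.7 times higher (34.6 to 36.8). The kinesin KIF14, which acts at the close of cytokinesis, was 229 times higher (132 to 436) on only 13 UMIs in the other cells.

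S-phase genes were also higher. Of the 44 genes of the G1/S and S list, 40 were past the fold and 0 were lower, with a median log2 ratio of 2.43. Of all genes tested, 11.2% were higher and 9.86% lower. PCNA stood at 176 and 318 CPM in cycling cells in sets 1 and 2, and was 5.42 times higher than in the other cells (5.12 to 5.72). TK1, a thymidine kinase that supplies nucleotides for replication, was 17.02 times higher (15.2 to 19.1), and RRM2, a subunit of ribonucleotide reductase, 8.98 times (8.44 to 9.55). The 4 that did not reach the fold in both sets were POLA1 and POLE, which encode DNA polymerase subunits, and RFC2 and RFC4, which encode parts of the clamp loader. POLA1 had a ratio of 1.93 (1.77 to 2.09). At least 5 S-phase genes were detected in 69.7% of cycling cells, with 56.4% in set 1 and 80.4% in the deeper set 2, and at 2000 UMIs per cell in 34.5% and 49.1%. At least 10 genes of the G2 and mitosis list were detected in 83.1% of cycling cells and 0.471% of the others, and at 2000 UMIs in 65.5% and 0.151%.

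Genes whose loss gives primary microcephaly in people encode kinetochore, spindle and centrosome proteins, and 18 of them were followed as a list. Against all other cells 16 were higher and 0 lower, with a median log2 ratio of 3.25, beside the 11.2% of all genes that were higher. ASPM, a spindle-pole protein, stood at 186 and 290 CPM in cycling cells in sets 1 and 2, and was 75.3 times higher than in the others (66.2 to 86.0). CDK5RAP2, a pericentriolar protein, stood at 52.5 against 19.9 CPM, and MCPH1, microcephalin, at 65.7 against 12.2 CPM. The exceptions were both centrosomal. CENPJ, a centriole-length factor, had a ratio of 1.93 (1.76 to 2.11), and PCNT, pericentrin, a ratio of 1.37 (1.17 to 1.60).

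The cycling cells were then split by identity. A cell was called radial glia-like with at least 5 of 10 genes (SLC1A3, VIM, HOPX, HES5, PAX6, SOX9, PLPP3, GDPD2, PON2 and FABP7) and EOMES-positive with at least 1 UMI of EOMES. FABP7 was detected in 99.8% of cycling cells and 97.1% of the others, so it adds little to the rule. In cycling cells that were EOMES-positive but not radial glia-like, VIM was found in 61.2%, PON2 in 43.0% and PAX6 in 34.6%. The radial glia rule held for 756 of 1386 cycling cells (54.5%, 51.9% to 57.2%) and 564 were EOMES-positive (40.7%, 38.1% to 43.3%). Of the other ferret cells, 4.69% and 7.08% met these rules. Among cells with at least 5 pyramidal neuron genes, the rules held for 1.58% and 4.02% at a median of 3857 UMIs, well below the shares in cycling cells. These are not noise levels, since 1.36% of that group was itself cycling. Pyramidal neuron genes also occur with EOMES: 45.1% of EOMES-positive cells with 0 rule genes and under 5 radial glia genes had at least 4 of them. The classes overlapped: 550 cycling cells were radial glia-like only (39.7%), 358 were EOMES-positive only (25.8%), 206 were both (14.9%) and 272 were neither (19.6%).

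The sets gave the same share of radial glia-like-only cells, 39.6% and 39.8%, but not the same share of the rest. EOMES-positive cells made up 29.4% of cycling cells in set 1 and 49.8% in set 2. Cells of both identities made up 7.59% and 20.7%, and cells of neither 31.0% and 10.4%. Depth moved with these classes, since the median was 6450 UMIs in cells of both identities and 3537 UMIs in cells of neither. At 2000 UMIs per cell, the share of both identities was 1.80% and of neither 38.2%. The radial glia share was then 36.4% and 34.7% in sets 1 and 2. The EOMES share was still apart, at 19.0% and 35.4%. What sets the remaining gap between the barcode sets was not tested.

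**Figure D2:**
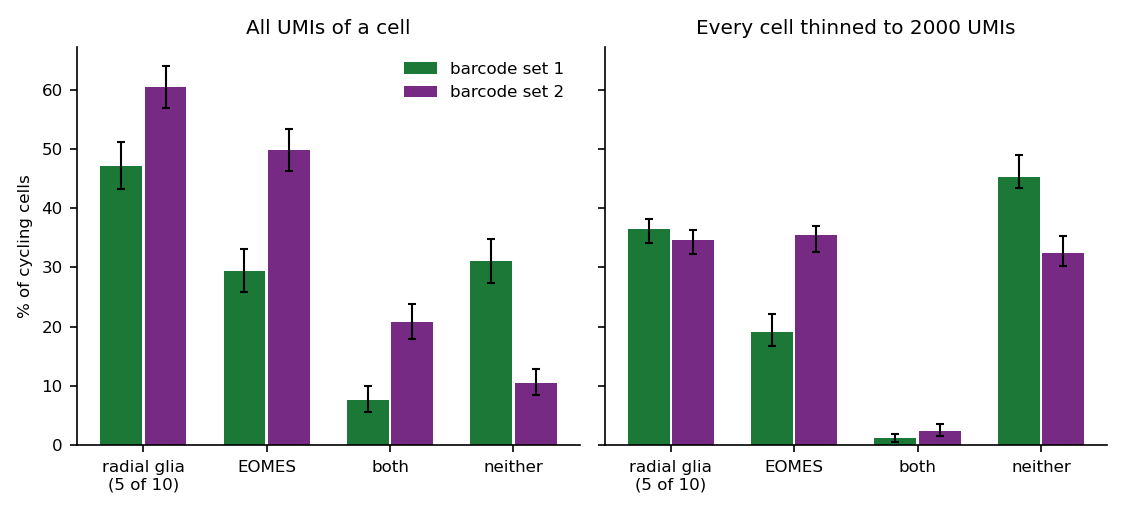
Percent of cycling cells that are radial glia-like, EOMES-positive, both or neither in each barcode set, with all UMIs (left, exact binomial 95% intervals) and with each cell thinned to 2000 UMIs (right, median with the lowest and highest of 20 draws). The EOMES share is higher in set 2 in both panels, and the share of both identities is 1.80% over the sets after thinning.

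Seen from the identity side, 42.4% of all radial glia-like cells were cycling (40.1% to 44.8%, with 40.2% in set 1 and 43.98% in set 2). Of all EOMES-positive cells 26.7% were cycling (24.8% to 28.7%, with 23.9% and 28.3%). Only 1.36% of cells with at least 5 pyramidal neuron genes were. At 2000 UMIs the shares were 31.1% of radial glia-like cells (35.1% and 28.7% by set), 21.1% of EOMES-positive cells (20.3% and 21.6%) and 0.769% of pyramidal neuron cells. The order radial glia, EOMES, neuron was therefore the same at both depths. EOMES was found in 27.2% of cycling radial glia-like cells and in 12.1% of the other radial glia-like cells, and at 2000 UMIs in 15.0% and 7.66% of the same cells. By set, the shares at 2000 UMIs were 9.04% and 6.58% in set 1, where the ranges of the draws overlapped. In set 2 they were 18.7% and 8.59%, so the gap rests mostly on set 2.

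Cycling radial glia and cycling EOMES cells, taken from here on without the cells of both identities, were then compared with each other. Both classes were chosen with the 7 rule genes of G2 and mitosis, so the selection itself makes them alike in mitotic RNA, and their levels there are a description. Of 11443 genes tested with at least 20 UMIs, 825 were at least 2-fold higher in cycling radial glia in both sets (7.21%) and 258 were lower (2.25%). None of the 43 testable S-phase genes, the 49 G2 and mitosis genes or the 18 microcephaly genes was among them in either direction. Their median log2 ratios were 0.21, -0.03 and 0.03, beside 0.10 over all genes tested. Summed over the G2 and mitosis list, cycling radial glia had 13763 and 13591 CPM in sets 1 and 2 and cycling EOMES cells 12194 and 15006 CPM, and these ranges overlap. Over the S-phase list the sums were 2192 and 3594 CPM against 2067 and 2967 CPM, a larger step between the sets than between the classes. At 2000 UMIs per cell, at least 5 S-phase genes were found in 32.8% and 55.8% of cycling radial glia in sets 1 and 2 and in 31.8% and 41.2% of cycling EOMES cells, so the gap between the classes was seen in set 2 and hardly in set 1.

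**Figure D3:**
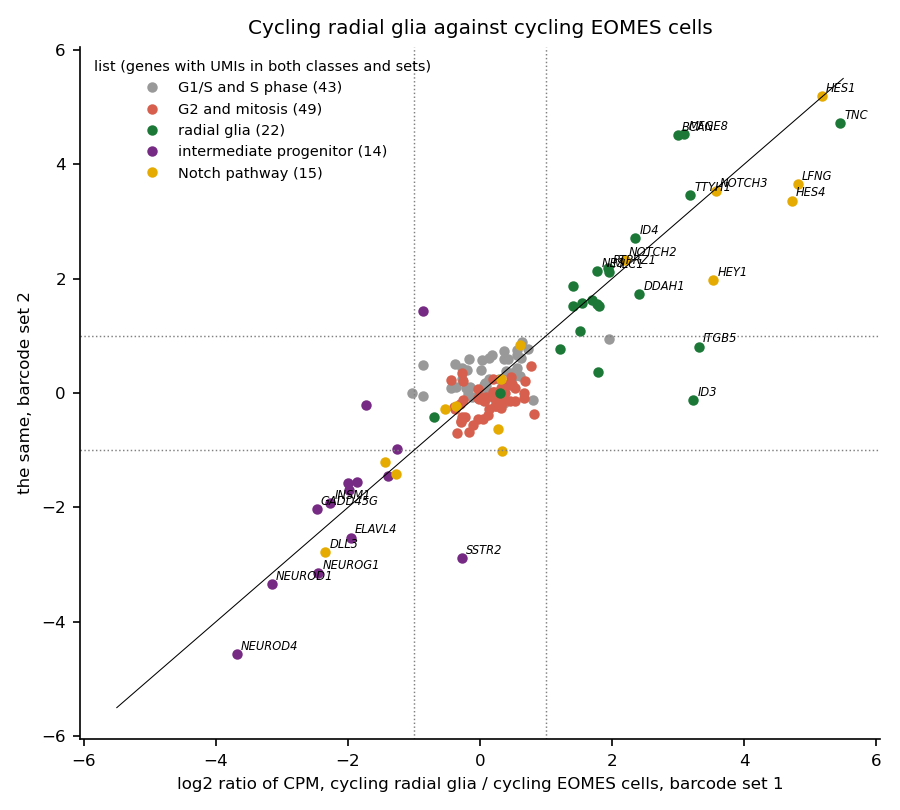
Log2 ratio of CPM in cycling radial glia to CPM in cycling EOMES cells, set 1 on the x axis and set 2 on the y axis, 1 point per gene of 5 lists, with dotted lines at the 2-fold limits. S-phase and G2 genes gather around 0 (medians 0.21 and -0.03), radial glia genes lie to the upper right (median 1.72) and intermediate progenitor genes to the lower left (median -1.92).

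The identity genes that the rules did not use separated the same cells. Of 25 testable genes of outer and other radial glia, 19 were higher in cycling radial glia and 0 lower. Of all genes tested, 7.21% were higher and 2.25% lower. TNC, the matrix protein tenascin-C of outer radial glia, stood at 238.9 and 266.7 CPM in cycling radial glia and at 5.445 and 10.2 CPM in cycling EOMES cells, a ratio of 29.3 (17.9 to 51.6). ID4, an inhibitor of bHLH factors, stood at 870 and 830 CPM and was 6.02 times higher (5.29 to 6.87). SOX2, the stem-cell factor, stood at 450 and 659 CPM in cycling radial glia but was also present at 169 and 228 CPM in cycling EOMES cells, a ratio of 2.76 (2.47 to 3.09). Outside that list, PTN, the secreted growth factor pleiotrophin, stood at 2138 and 1748 CPM against 330.3 and 252.5 CPM.

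Of 14 testable intermediate progenitor genes, 10 were higher in cycling EOMES cells and 0 in cycling radial glia. Over all genes tested these shares were 2.25% and 7.21%. NEUROD4, a proneural bHLH factor, stood at 142 and 185 CPM in cycling EOMES cells and at 11 and 7.81 CPM in cycling radial glia. INSM1, a zinc-finger factor that promotes the generation of basal progenitors, stood at 365 and 338 CPM against 76.0 and 89.5 CPM. NEUROG2, the proneural factor of the dorsal cortex, was found in both classes, at 174 and 252 CPM against 44 and 78.1 CPM. GADD45G, a growth-arrest gene, stood at 472 and 592 CPM against 85.0 and 145 CPM. Neuronal genes were present in the dividing EOMES cells as well: ELAVL4, an RNA-binding protein of neurons, was at 245 and 378 CPM, and the axon guidance receptor DCC, which is in none of the lists, at 356 and 805 CPM. DCX, the microtubule protein doublecortin of migrating neurons, had 0.191 times its EOMES-cell level in cycling radial glia (0.148 to 0.243).

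Notch signalling keeps radial glia undifferentiated through HES and HEY repressors, and neighbouring cells that express Delta ligands activate it. Of 15 testable Notch pathway genes, 6 were higher in cycling radial glia and 3 in cycling EOMES cells, beside 7.21% and 2.25% of all genes tested. The receptors NOTCH2 and NOTCH3, the repressors HES1, HES4 and HEY1 and the Fringe enzyme LFNG were on the radial glia side. HES1 stood at 131 and 115 CPM in cycling radial glia and 3.63 and 3.13 CPM in cycling EOMES cells, a ratio of 36.9 (16.8 to 101). LFNG, which modifies the receptors, was 15.2 times higher (6.81 to 42.2) on 6 UMIs in the EOMES cells. The ligand-like gene DLL3, the Fringe enzyme MFNG and NUMBL, a relative of the Notch antagonist NUMB, were on the EOMES side. DLL3 stood at 76.2 and 177 CPM in cycling EOMES cells and 15.0 and 25.8 CPM in cycling radial glia. NOTCH1 was short of the fold, at 125 CPM in cycling radial glia and 105 CPM in cycling EOMES cells over both sets, as was the ligand DLL1 at 14.3 and 20.2 CPM.

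Of 5 glial-lineage genes, 4 were higher in cycling radial glia, beside 7.21% of all genes tested, and 1 was past the fold in neither direction. EGFR, the receptor that marks glial and late progenitors, stood at 28.0 and 79.3 CPM in cycling radial glia in sets 1 and 2 and was 22.0 times higher than in cycling EOMES cells (9.23 to 68.6). OLIG1, a factor of the oligodendrocyte lineage, stood at 9 and 56.5 CPM and had 0 UMIs in cycling EOMES cells, so that it was at least 23.6-fold higher against a floor of 3 UMIs over that class. Both glial genes were higher in set 2. At least 2 glial-lineage genes were found in 13.1% of cycling radial glia, with 6.53% in set 1 and 18.4% in set 2, and in 1.40% of cycling EOMES cells. At 2000 UMIs the shares were 2.33% and 9.14% in cycling radial glia and 0.285% in cycling EOMES cells.

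**Figure D4:**
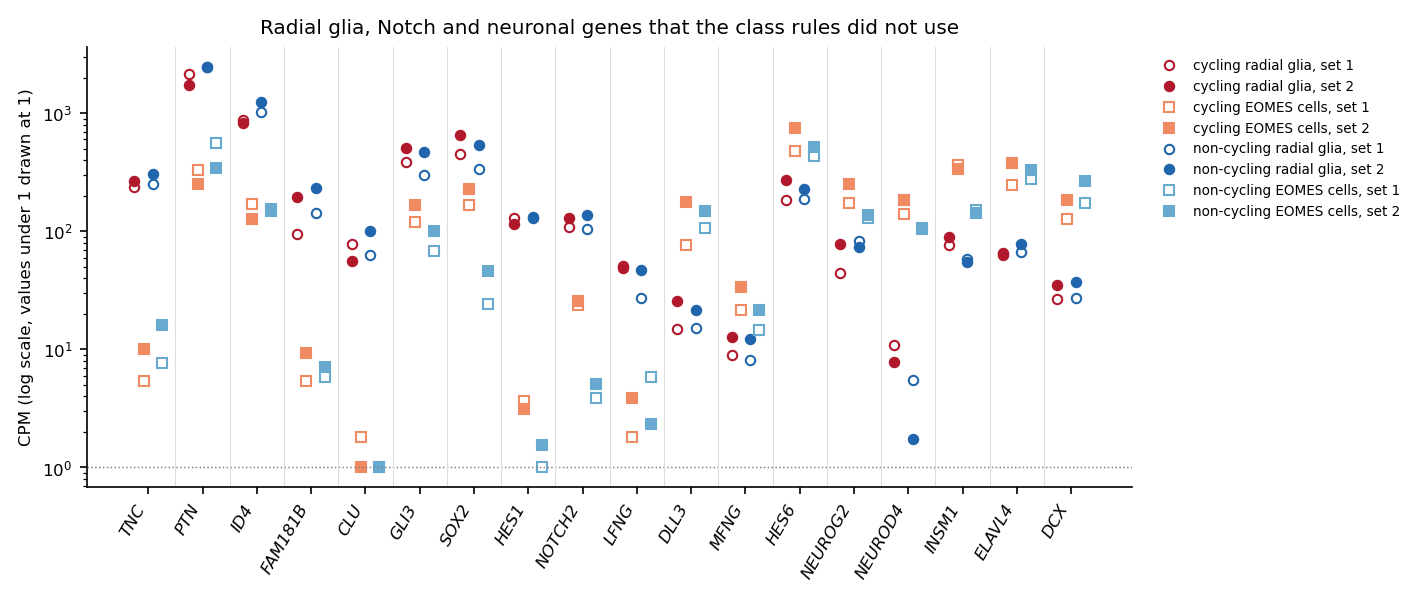
CPM on a log axis (values below 1 drawn at 1) of 18 identity and Notch pathway genes in cycling and non-cycling radial glia and EOMES cells, set 1 as open and set 2 as filled points. TNC and HES1 are high in both radial glia classes whether cycling or not, NEUROD4 and DLL3 in both EOMES classes.

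The cyclins, their kinases and their inhibitors set the pace and the exit of the cycle. Of 24 such genes, CCNA2, CCNB1 and CCNB2 are also in the G2 and mitosis list, and CCNE1, CCNE2 and E2F1 in the G1/S and S list. The counts for these lists therefore overlap. Against all other cells, 17 of the 24 were higher and 1 was lower, beside 11.2% and 9.86% of all genes tested. The lower one was CDKN1C, which encodes the inhibitor p57, at 70.1 and 95.7 CPM in cycling cells in sets 1 and 2 against 226 and 254 CPM in the others, a ratio of 0.353 (0.326 to 0.383). It was also the only one of 23 that separated the cycling classes, a share of the list near the 2.25% of all genes that were lower in cycling radial glia. CDKN1C stood at 31.0 and 37.9 CPM in cycling radial glia and at 112.5 and 151 CPM in cycling EOMES cells, a ratio of 0.253 (0.198 to 0.322). It was detected in 10.9% of cycling radial glia and 38.3% of cycling EOMES cells, and at 2000 UMIs in 4.84% and 20.8%. Non-cycling EOMES cells, meaning those with 0 of the 7 rule genes, had more of it still, at 195 and 279 CPM.

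The other members were short of the fold in at least 1 set. Cyclin D2 (CCND2), which drives passage through G1, stood at 194 and 236 CPM in cycling radial glia and 118 and 119 CPM in cycling EOMES cells, a ratio of 1.86 (1.59 to 2.18). The phosphatase CDC25B, an activator of CDK1, had a ratio of 0.497 (0.389 to 0.634) over both sets but was only 0.564 in set 1. Cyclin D1 (CCND1) was low throughout, at 17 and 40.9 CPM in cycling radial glia and 14.5 and 19.5 CPM in cycling EOMES cells. CDKN2C and CDKN2D, which encode the INK4 inhibitors p18 and p19, were on the cycling side of both identities. CDKN2C stood at 110 CPM in cycling radial glia against 25 CPM in non-cycling radial glia, and CDKN2D at 85.8 CPM in cycling EOMES cells against 24.8 CPM in non-cycling EOMES cells.

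**Figure D5:**
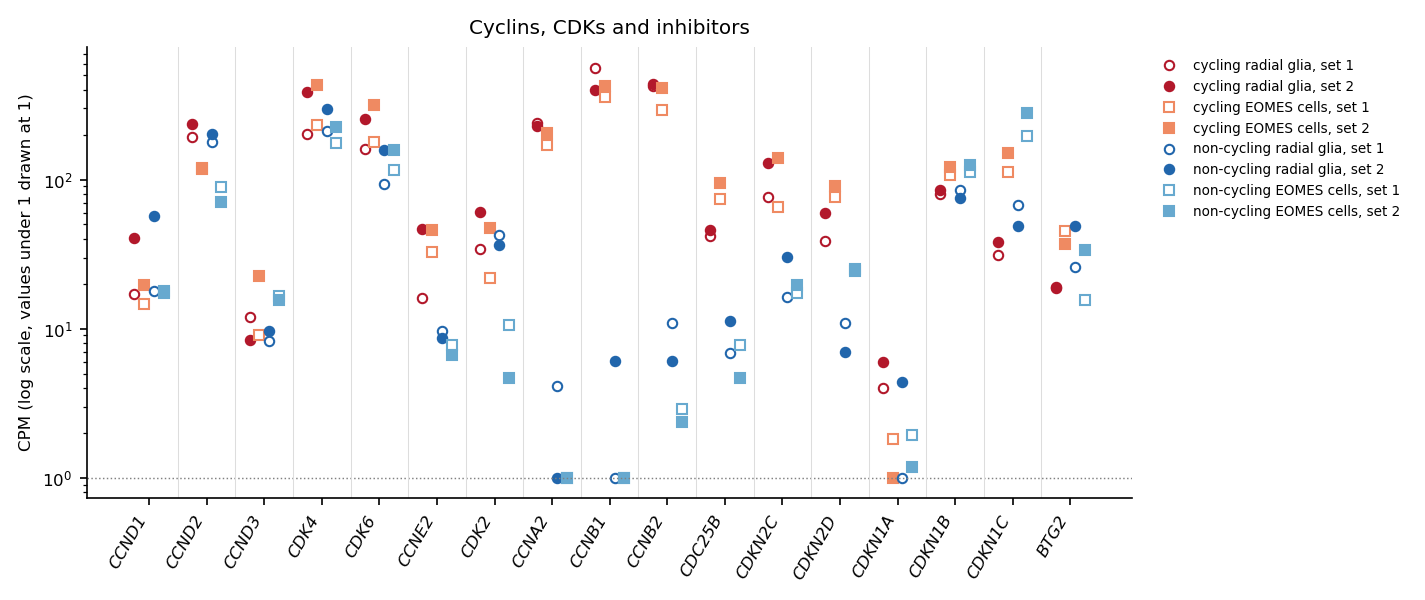
CPM on a log axis (values below 1 drawn at 1) of 17 cyclins, cyclin-dependent kinases, inhibitors and related genes in cycling and non-cycling radial glia and EOMES cells, set 1 as open and set 2 as filled points. CDKN1C is at 112.5 and 151 CPM in cycling EOMES cells and at 31.0 and 37.9 CPM in cycling radial glia.

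Cycling radial glia were next set beside 513 non-cycling radial glia, which had 0 of the 7 rule genes and a median of 3268 UMIs. Of 11886 genes tested, 434 were higher in the cycling cells (3.65%) and 317 lower (2.67%). The lower count was the less stable: with 10 CPM added to both sides the counts were 280 and 26. With set 1 left out they were 592 and 763. Because the 7 rule genes of G2 and mitosis separate the cycling from the non-cycling class, mitotic levels here describe the choice of cells. All 49 G2 and mitosis genes were higher, with a median log2 ratio of 5.11. Only 8 of 42 S-phase genes were, among them RRM2, TK1 and GINS1, a subunit of the replicative helicase complex. RRM2 stood at 208 and 319 CPM against 30.1 and 47.0 CPM. None of MCM2 to MCM7, which encode the replicative helicase, was past the fold in either direction. Their ratios over both sets ran from 0.577 for MCM5 (0.395 to 0.840) to 1.29 for MCM7 (1.04 to 1.59). At least 5 S-phase genes were detected in 48.2% of radial glia-like, EOMES-negative cells that were not cycling by the rule (434 of 901) and in 71.5% of cycling radial glia, and at 2000 UMIs in 32.3% and 45.7%. They were detected in 6.34% of cells with at least 5 pyramidal neuron genes that were not cycling by the rule, at a median of 3831 UMIs. That share was 2.78% in set 1 and 8.66% in set 2. The rule uses G2 and mitosis genes, and the phase of the non-cycling cells was not tested.

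Of 26 testable radial glia genes, 0 were higher in cycling than in non-cycling radial glia and 3 lower, beside 3.65% and 2.67% of all genes tested. Their median log2 ratio was -0.40, against -0.09 over all genes tested. Of 18 Notch pathway genes 0 were past the fold in either direction. HES1 stood at 131 and 115 CPM in cycling and 133 and 130.2 CPM in non-cycling radial glia. The 3 lower genes were MFGE8, which encodes a secreted phagocytosis factor, ID3, and BCAN, which encodes the matrix protein brevican. BCAN stood at 58.0 and 71.5 CPM against 116 and 294 CPM. Of 5 glial-lineage genes 0 were higher and 1 lower, and their median log2 ratio was 0.38. The lower one was PDGFRA, the receptor of oligodendrocyte precursors, which stood at 3 and 21.0 CPM against 9.57 and 105 CPM. The non-cycling class also held 12 cells with at least 3 endothelial or mural genes, against 5 in cycling radial glia, and the vascular genes PECAM1 and FLT1 were lower in the cycling cells together with IGFBP7 (232 and 35.4 CPM against 606 and 555 CPM). Without microglia-like and vascular-like cells the log2 ratio of ID3 was 0.27 in place of -1.99. In none of the lists but also lower were DSCAM, a neuronal cell adhesion molecule, with a ratio of 0.412 (0.368 to 0.461), and the neuregulin receptor ERBB4, with 0.392 (0.340 to 0.450). At least 4 pyramidal neuron genes were found in 17.5% of non-cycling and 10.4% of cycling radial glia. These shares were 25.6% and 10.6% in set 1 and 11.4% and 10.2% in set 2. In the top 5% of doublet scores were 12.7% of non-cycling and 6.55% of cycling radial glia. The cause of the lower DSCAM and ERBB4 was not tested.

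Cycling EOMES cells were compared with 1030 non-cycling EOMES cells, whose median depth was 2948 UMIs. Of 11583 genes tested, 649 were higher in the cycling cells (5.6%) and 561 lower (4.84%). All 49 G2 and mitosis genes and 29 of 41 S-phase genes were higher, with median log2 ratios of 6.20 and 2.13. PCNA stood at 138 and 246 CPM against 54.2 and 45.4 CPM. Of 21 testable radial glia genes, 3 were higher in the cycling EOMES cells (SOX2, ID1 and MOXD1) and 1 lower (CXCL14). SOX2 stood at 169 and 228 CPM against 24.2 and 45.8 CPM, a ratio of 5.32 (4.37 to 6.49). ID1, an inhibitor of bHLH factors, stood at 167 and 176 CPM against 34.9 and 5.09 CPM. Of 11 Notch pathway genes 1 was higher and 0 lower, namely NOTCH2 at 23.6 and 25.8 CPM against 3.87 and 5.09 CPM. The outer radial glia gene MOXD1 was 13.7 times higher (4.80 to 53.9) on 4 UMIs in the non-cycling cells. Of 15 intermediate progenitor genes, 1 was higher, beside 5.6% of all genes, and 3 were lower (SSTR2, PENK and NHLH1), beside 4.84%. The higher one was INSM1, with a ratio of 2.37 (2.11 to 2.66). Without cells that have at least 4 pyramidal neuron genes, the log2 ratio of PENK was 0.379 in place of -1.455.

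Of 7 pyramidal neuron genes, 4 were lower in the cycling EOMES cells, beside 4.84% of all genes tested, 0 were higher and 3 were past the fold in neither direction. NEUROD6, a bHLH factor of pyramidal neurons, had 0.279 times its level in non-cycling EOMES cells (0.239 to 0.324). CUX2, the upper-layer factor, stood at 52.6 and 64.1 CPM against 147 and 229 CPM. SSTR2, a somatostatin receptor of the intermediate progenitor list, stood at 3.63 and 13.3 CPM against 32.9 and 53.2 CPM. At least 4 pyramidal neuron genes were found in 25.7% of cycling and 45.1% of non-cycling EOMES cells, and at 2000 UMIs in 7.27% and 33.0%. EOMES itself, which chose both classes, was at 434 and 570 CPM in the cycling cells of sets 1 and 2. In the non-cycling cells it was at 483 and 486 CPM, so the direction differed between the sets.

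The 206 cycling cells of both identities lay between the single classes in identity. Their G2 and mitosis sum was 10388 CPM in set 1, below both single classes there, and 14432 CPM in set 2, between them. Over both sets their radial glia list sum was 4426 CPM (7684 CPM in cycling radial glia and 2508 CPM in cycling EOMES cells) and their intermediate progenitor sum 2280 CPM (718 CPM and 2760.0 CPM). In the top 5% of doublet scores were 4.26% of them in set 1 (2 of 47 cells), below the 6.94% of cycling radial glia and 8.15% of cycling EOMES cells there, and 16.4% in set 2 (26 of 159), above 6.23% and 7.18%. Over both sets the share was 13.6%, so it rests on set 2. Whether some of these cells are doublets was not tested further.

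The 272 cycling cells of neither identity were less mitotic and more mixed. Their G2 and mitosis sum was 8673 CPM. Of them, 16 had at least 3 microglia genes, 17 at least 3 endothelial or mural genes, 34 at least 2 glial-lineage genes, 16 at least 2 inhibitory-lineage genes and 73 at least 4 pyramidal neuron genes, and 135 met none of these lists. EGFR stood at 83 CPM and OLIG1 at 89.4 CPM. Among all 1386 cycling cells, 18 were microglia-like and 24 vascular-like, so that most cycling cells of those types lay in this class. Blood genes were near 0 in the cycling cells (0.282 CPM, against 6.90 CPM in the others).

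Markers of neurons were also present among the cycling cells. At least 4 pyramidal neuron genes were detected in 20.3% of them, with a median of 6552 UMIs, and in 72.3% of the other cells. At 2000 UMIs per cell the shares were 6.72% (9.21% in set 1 and 4.70% in set 2) and 65.6%. NEUROD6, a bHLH factor of pyramidal neurons, had a ratio of 0.123 (0.114 to 0.132) to the other cells. Without cells that have at least 4 pyramidal neuron genes on either side, 653 genes in place of 1743 were higher in cycling cells. The part of free RNA and of doublets in these neuronal counts was not tested.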

How the data were processed

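Ferret cortical cells were profiled with the 10x Genomics system. The authors deposited UMI counts per gene and cell (22008 genes, 23482 cells, the number left by their filter, 86935280 UMIs) and the submitters' processing notes name Cell Ranger, Seurat and StringTie. The ferret genome build is not given in the sources used here. Cells with fewer than 750 detected genes were left out (241), leaving 10187 and 13054 cells in the sets. Counts were summed per class and set and given as CPM. Shares carry exact Clopper-Pearson and ratios exact conditional 95% intervals (Python 3.11.15, SciPy 1.17.1, scanpy 1.11.5). The scripts were tested on simulated data. Scrublet's automatic threshold marked 1 and 2 cells, so it had not worked, and no cell was removed. Alternatives changed the rules, minimum counts, depth and cells left out. Named genes are members of the lists and, in each direction, the 12 with the most extreme ratio in the less extreme set after 10 CPM was added to both sides, among genes past the UMI minimum and detected in at least 10% of cells of the higher class. The cells and lists were chosen with earlier results of these data known. Promoter sequences were not analysed here.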

Additional observations from a re-analysis of the deposited data

How the results depend on the processing

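Cycling cells made up 8.40% of cells with a rule of at least 2 genes, 4.76% with at least 4, 3.74% with 7 other G2 genes and 5.29% at 2000 UMIs, in place of 5.96%. The radial glia share (54.5%) was 46.6% with at least 2 rule genes, 58.0% with at least 4, 60.8% with the 7 other genes, 69.0% and 42.1% with at least 4 and 6 radial glia genes, 35.2% at 2000 UMIs and 47.2% to 60.5% with 1 barcode set left out. The EOMES share (40.7%) was 35.7% with at least 2 rule genes, 44.3% with the 7 other genes, 26.6% with at least 2 EOMES UMIs, 28.2% at 2000 UMIs and 29.4% to 49.8% with 1 set left out. Over the same alternatives, cells of both identities made up 11.8%, 18.5%, 23.1% and 8.66% (at least 4 and 6 radial glia genes), 9.88%, 1.80% and 7.59% to 20.7%, and cells of neither 29.6%, 15.2%, 13.5%, 13.3%, 25.8%, 28.7%, 38.2% and 10.4% to 31.0%. With 10 CPM added to both sides of each ratio, genes higher and lower numbered 673 and 402 against other cells, 321 and 124 between the cycling classes, 280 and 26 between cycling and non-cycling radial glia, and 379 and 91 for EOMES cells. With 5 times the minimum UMIs the last 3 were 347 and 131, 255 and 61, and 344 and 210. With no minimum, 397 and 716 genes were lower in the class and radial glia comparisons. Without cells with pyramidal neuron genes, 653 were higher against other cells. With 1 set left out, the lower genes numbered 1605 to 2359, 353 to 391, 472 to 763 and 674 to 1214 in the 4 comparisons, and the higher ones 1781 to 2047, 1007 to 1155, 538 to 592 and 590 to 937. The log2 ratio against other cells of HEYL (1.17) was -0.41 without microglia-like and vascular-like cells and -0.35 without cells with pyramidal neuron genes. Without the latter, ID3 (1.14) was -0.71, BCAN (1.38) -0.27, JAG1 (1.53) -0.11, KCNJ8 (1.52) -0.26, and PENK between EOMES cells (-1.46) was 0.38. ID3 between radial glia (-1.99) was 0.27 without microglia-like and vascular-like cells. For each, the cause was not tested. The alternatives that leave out such cells, and the thinned shares of list genes, were chosen after seeing the data. Of 6104 gene values under the alternatives, 4733 lay within the counting interval of the reported ratio, 1363 outside it, and 8 are the changes of sign above. Changes of sign were counted only for genes past the fold in the reported comparison. No paired analysis was possible because the ferret cells come from 1 embryo and their barcode sets are not tied to samples. Depth limits the classes: a cell with few UMIs can miss EOMES or fall below 5 radial glia genes.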

Other observations

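Most of the 12 genes ranked highest for cycling radial glia over cycling EOMES cells, with 10 CPM added to both sides, are in none of the lists above. Of these, 3 are given here. ATP1B2, a sodium pump subunit of astrocytes, stood at 103 and 100.9 CPM in sets 1 and 2 in cycling radial glia and 5.445 and 3.91 CPM in cycling EOMES cells, a ratio of 23.3 (11.6 to 54.4). The glypican GPC5, a cell-surface proteoglycan, stood at 200.9 and 268 CPM against 14.5 and 33.6 CPM, and the ETS factor ETV1 at 139 and 173 CPM against 14.5 and 18.0 CPM. On the EOMES side, NRN1, the neurite growth factor neuritin, stood at 247 and 342 CPM against 35.98 and 17.4 CPM. GLI3, the main repressor of the Hedgehog pathway in the cortex and a gene of the radial glia list, was 3.05 times higher in cycling radial glia (2.68 to 3.49). In cycling EOMES cells, MYT1L, a neuronal zinc-finger factor, had 0.241 times its level in non-cycling EOMES cells (0.193 to 0.297), and DAB1, the adaptor of the Reelin pathway, 0.257 times (0.196 to 0.332).

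Of 7 inhibitory-lineage genes, 1 was higher and 1 lower in cycling cells than in the others, beside 11.2% and 9.86% of all genes. The lower one, DLX5, a factor of interneurons, stood at 2.31 and 3.79 CPM in cycling cells against 5.86 and 19.8 CPM in the others. The higher one, GSX2, a factor of ventral progenitors, stood at 1.54 and 5.35 CPM against 0.465 and 0.620 CPM, on 28 UMIs in the cycling cells. At least 2 inhibitory-lineage genes were found in 33 of the 1386 cycling cells (2.38%) and in 5.92% of the others. In set 1 the shares were 1.78% in cycling cells and 1.80% in the others. In set 2 they were 2.87% and 9.13%, so the gap was seen in set 2 only. These values describe 1 embryo.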
